A study of Mus musculus with 6 samples.

Results

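Cathepsins and legumain, the proteases that break down proteins inside lysosomes, were examined in RNA sequencing of mouse peritoneal macrophages (PEMs) with and without a conditional knockout of Tim-4 (gene Timd4), a surface receptor by which macrophages take up dying cells. The 10 genes were taken from the table by symbol: Ctsa, Ctsb, Ctsc, Ctsd, Ctse, Ctsh, Ctsl, Ctss, Ctsz and Lgmn, out of 15415 genes in the deposited table. Ctsl, Lgmn, Ctsb and Ctss were higher in the knockout libraries, and no member was lower by the test. With the replicate number as a block, Ctsl and Lgmn passed and Ctsb and Ctss did not (adjusted p = 0.061 and 0.051 by limma). The largest log2 fold change was that of Ctsl, which averaged 1294 ± 268 FPKM (SD, n = 3) in the knockout libraries against 483 ± 34.7 in the controls.

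The knockout genotype was LysM-Cre; Tim-4 fl/fl (3 libraries, titled PEM-CKO) and the control genotype was Tim-4 fl/fl (3 libraries, titled PEM-Control). Mice of both groups were on a C57BL/6J background and both carried the floxed Tim-4 alleles, with loxP sites flanking a stretch from intron 1 to intron 3, and only the PEM-CKO mice carried Cre. LysM-Cre is expressed from the lysozyme locus Lyz2, so recombination is expected in macrophages and in other myeloid cells such as neutrophils. Since no control carried Cre, an effect of the Cre allele and an effect of the Tim-4 deletion cannot be told apart for any gene. The study's methods describe male mice of 6 to 8 weeks of age, an intraperitoneal injection of 1 ml of 6% starch and collection of PEMs after 3 days. The treatment entry reads lps (lipopolysaccharide) for every one of the 6 libraries. The methods describe a dose of 1 µg/ml over 3.5 hours and leave unsaid if it was given to the cells that were sequenced, so there was no library labelled as untreated to compare. No source used here says whether the libraries came from separate animals, so the p-values measure the spread between these libraries, which may be technical.

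Titles and genotype entries contradict each other in the labels (the PEM-CKO titles carry the entry WT), and the libraries were grouped by title. Timd4 was at 0.333, 0.394 and 0.246 FPKM in PEM-CKO 1, 2 and 3, and at 19.5, 12 and 1.19 FPKM in PEM-Control 1, 2 and 3. Reads were counted over the gene and not over the floxed stretch alone. The groups did not overlap and the difference missed the threshold (log2 fold change -2.66, adjusted p = 0.0715 by limma). Lyz2 was at 41.4, 4656 and 106 FPKM in the PEM-CKO libraries and between 7090 and 8482 FPKM in the controls, so that PEM-CKO 2 stood apart from the other knockout libraries. Lyz2 is the locus from which Cre is expressed, and the part of the Cre allele in these levels was not tested. PEM-CKO 1 and PEM-Control 3 shared reads of placental genes that were at 0 or 1 read in each of the other 4 libraries, among them 6 cathepsins described further on. The other 6 macrophage markers were detected in every library and none passed the test. Csf1r (83.3 to 143 FPKM in PEM-CKO, 151 to 180 in PEM-Control) and Cd14 (262 to 406 against 484 to 631) were lower in every PEM-CKO library, Cd68 was higher in every one (1572 to 1685 against 816 to 1379), and Adgre1, Itgam and Mertk overlapped, with Mertk at 0.821 FPKM in PEM-Control 3. Summed marker levels of several other cell types were below the controls in PEM-CKO. The sum of 7 B cell markers was 11.1 to 12.2 FPKM against 35.5 to 131 in the controls, that of 7 mast cell markers 1.89 to 2.27 against 38.2 to 49.3, and that of 9 markers of large peritoneal macrophages 5.64 to 10.7 against 45.9 to 168 in the controls. The largest part of the B cell sums in PEM-CKO was Cd22, whose groups overlapped (6.42 to 8.25 against 5.40 to 9.58 FPKM, log2 fold change 0.01, adjusted p = 0.979 by limma). The last list holds Timd4, the deleted gene, and the largest part of its control sums was Prg4 (2.33 to 3.99 FPKM in PEM-CKO, 30.1 to 114 in PEM-Control). The sum of 6 neutrophil markers overlapped (70.4 to 200.1 against 192 to 456), with S100a8 and Camp lower by the test and S100a9 and Mmp8 overlapping. Within same-numbered libraries this sum was lower in PEM-CKO each time (127 and 192, 70.4 and 281, 200.1 and 456 FPKM). With the replicate block 1 neutrophil marker passed. Dendritic cell markers summed to 2.66 to 6.37 FPKM against 7.72 to 11.3, eosinophil markers to 0.231 to 0.524 against 0.713 to 1.25, and small peritoneal macrophage markers to 90.8 to 102 against 162 to 3496. In the last list Retnla (8.62 to 15.0 FPKM against 98.5 to 3428) and Irf4 were lower by the test, while Mrc1 was higher (63.4 to 69.4 against 41.9 to 46.2, log2 fold change 0.57, adjusted p = 0.0326 by limma). Summed T and NK cell markers were at most 1.58 FPKM in every library, with Cd3d at 0 in PEM-CKO 2 and 3. The part of these cells in the differences was not tested, and in bulk RNA a change in the share of a cell type and a change in RNA per cell cannot be told apart.

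Cathepsins are made as inactive precursors, carried from the Golgi to endosomes and lysosomes mainly by mannose 6-phosphate receptors, and activated there by acid pH and by cleavage. Most belong to the papain family of cysteine proteases (Ctsb, Ctsc, Ctsh, Ctsl, Ctss, Ctsz), Ctsd and Ctse are aspartic proteases, and Ctsa is a serine carboxypeptidase. Legumain, a cysteine protease of another family that cuts after asparagine, processes several cathepsins to their mature forms. In macrophages these enzymes digest engulfed cells and pathogens and trim antigens and the invariant chain for presentation by MHC class II, and cystatins hold the cysteine cathepsins in check outside the lysosome.

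Many lysosomal genes carry a short palindrome, CACGTG, near their start sites, the core of the sequence recognised by TFEB and its relatives. It was searched in RefSeq promoter windows (GRCm38.p6, from 250 bases before to 50 after a start site) for the 7 members that had one. Because the palindrome reads the same on both strands, one search covered both. Of all 27025 genes with a window, 8.09% held it, and 4 members did: Ctsa, Ctsd, Ctsl and Lgmn. The matches are shown as 30 bases in the direction of the gene with the palindrome in capitals, since they are the sequence these 4 members have in common and since 2 of them (Ctsl and Lgmn) had the largest log2 fold changes while the other 2 did not pass the test.
Ctsa, chr2:164833758-164833787, plus strand, 2 matches: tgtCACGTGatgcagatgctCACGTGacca
Ctsd, chr7:142388048-142388077, minus strand: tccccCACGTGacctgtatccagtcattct
Ctsd, chr7:142387908-142387937, minus strand: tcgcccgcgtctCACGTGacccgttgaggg
Ctsl, chr13:64370739-64370768, minus strand: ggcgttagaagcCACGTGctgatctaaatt
Lgmn, chr12:102439124-102439153, minus strand: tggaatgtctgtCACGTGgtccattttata
The matches in Ctsa lay around a start site, with the first base of one 12 bases before it and that of the other 5 bases after it, and in only 1 of the 2 start site windows of this gene. In Lgmn the match began 49 bases before a start site, again in 1 of 2 windows. Those of Ctsd began 245 and 98 bases before the start and that of Ctsl 236 bases before it. The longer form TCACGTGA, which contains the first motif and was found in 1.12% of all genes, was present at both places in Ctsa and at 1 of the 2 in Ctsd, and not in Ctsl or Lgmn. The windows of Ctsc, Ctss and Ctsz held no CACGTG, and Ctsb, Ctse and Ctsh were not searched. The letters say nothing about whether a factor was bound there in these cells.

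Levels are given as FPKM, fragments scaled to gene length and to the counted reads of the library, which can be compared between genes. The members ranged over more than 3 orders of magnitude, and their order by mean level was the same in both groups: Ctsd, Ctss, Ctsb, Ctsz, Ctsl, Lgmn, Ctsa, Ctsh, Ctsc and Ctse. Among the 9030 genes tested, Ctsd was the 6th most abundant by mean FPKM over the 6 libraries, Ctss the 16th, Ctsb the 21st and Ctsz the 36th. Ctsl held place 60, Lgmn place 106, Ctsa place 227, Ctsh place 513, Ctsc place 2033 and Ctse place 8546. The ranges of neighbours in the order did not overlap, except those of Ctsz and Ctsl in PEM-CKO and those of Ctsl and Lgmn in PEM-Control.

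**Figure D1:**
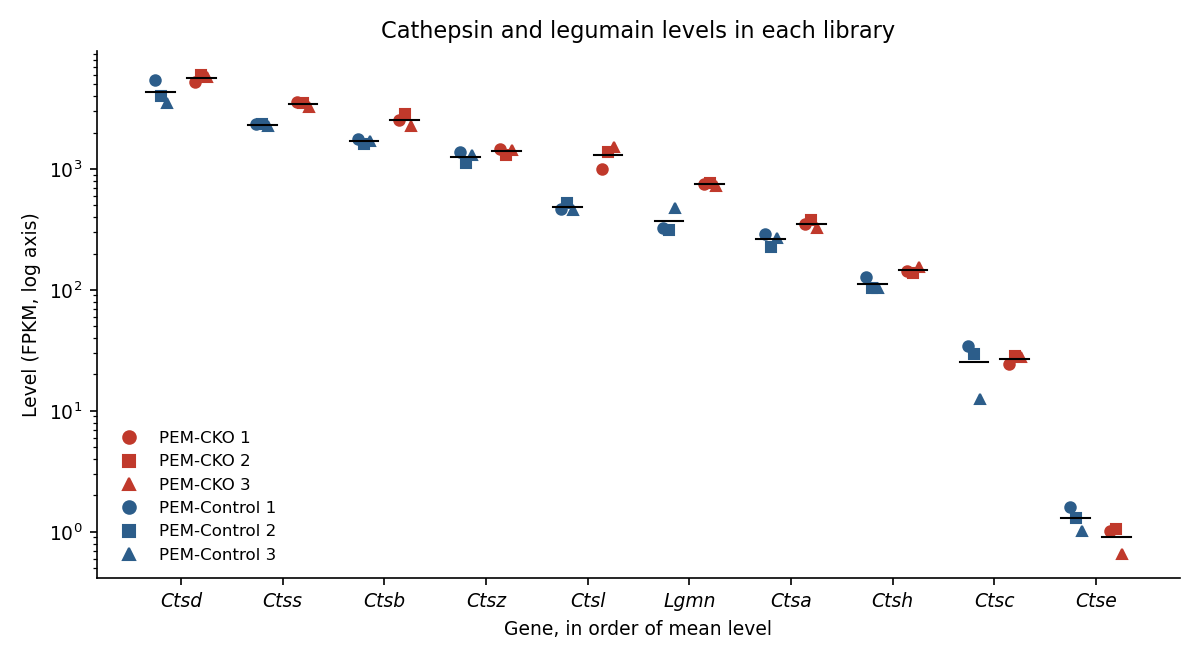
Level of each member in each library in FPKM (log axis), with genes in order of mean level, PEM-Control in blue, PEM-CKO in red, one symbol per replicate number and a black bar at each group mean. Ctsl, Lgmn, Ctsb, Ctss, Ctsa and Ctsh show red points that all lie above the blue ones, while the groups overlap for Ctsd, Ctsz, Ctsc and Ctse.

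The groups were compared for each gene with limma on log2(FPKM + 1), with p-values adjusted over all 9030 genes tested and a threshold of 0.05. All 10 members had a mean of at least 1 FPKM in one group and so entered the test. Of these, 4 were higher in PEM-CKO and none was lower, beside 2.57% of all genes higher (232 genes) and 4.74% lower (428 genes). At an unadjusted p under 0.05, 6 members passed, beside 27.6% of all genes in either direction. All PEM-CKO libraries lay above all PEM-Control libraries for 6 of the 10 members, and for 11.1% of all genes. The log2 fold change was above 0 for 9 members, with a median of 0.42 over the members and of -0.11 over all genes. Since the median of all genes was below 0, a rescaling of the libraries by the median of ratios was also fitted, which moved it to 0.01 and the members' median to 0.56. The same 4 members passed under it, beside 3.8% of all genes higher, and the calls over all genes became 343 higher and 326 lower. These 4 also passed with a pseudocount of 0.1 (2.67% of all genes higher) and without PEM-Control 3 (5.87%), and Ctsl, Lgmn and Ctss passed with voom, a limma fit to the recovered reads (3.3%).

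The count of members was lower in the other fits. Ctsl and Lgmn were the 2 that passed when the replicate number was added as a block (3.9% of all genes higher), without a filter on low values (0.915%) and with at least 10 reads in every library (2.23%). The same 2 passed without PEM-CKO 3 (1.94%) and without PEM-Control 1 (3.06%), and Ctsl alone passed without PEM-CKO 1 (0.132%). Without PEM-CKO 2 (0.2%) or without PEM-Control 2 (0.0111%) 0 members passed after adjustment by limma, and 5 passed at an unadjusted p under 0.05 in each case, beside 15.9% and 19.7% of all genes in either direction.

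**Figure D2:**
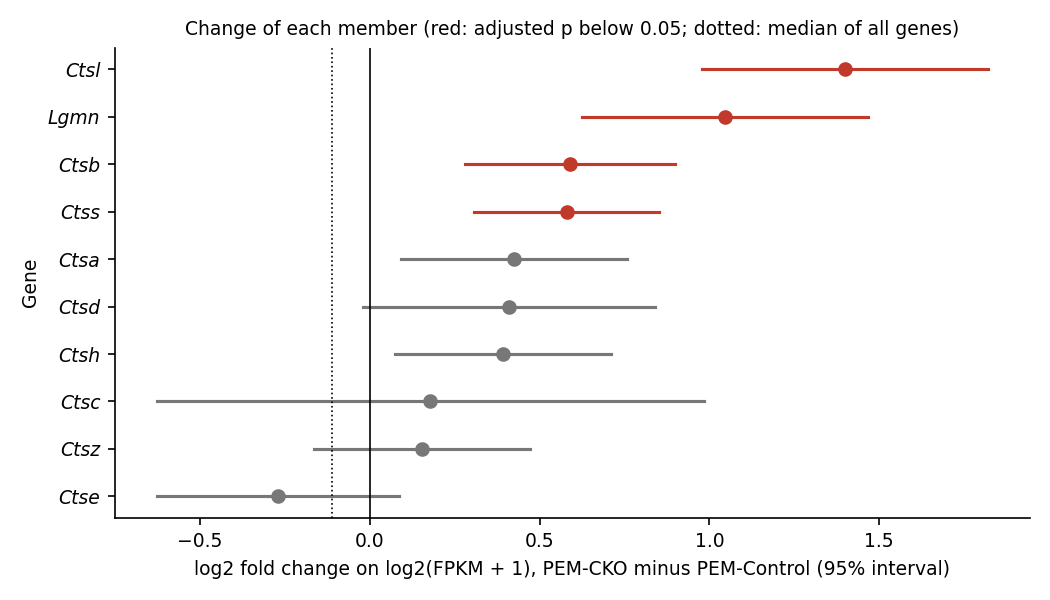
Log2 fold change of each member on the log2(FPKM + 1) scale, PEM-CKO minus PEM-Control, with its 95% interval, in red where the adjusted p was below 0.05, with a dotted line at the median of all genes tested (-0.11). Ctsl and Lgmn lie farthest to the right at 1.40 and 1.05, and only Ctse lies to the left of 0.

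Ctsl encodes cathepsin L, a potent endopeptidase of the lysosome. Its level was 994, 1378 and 1509 FPKM in PEM-CKO 1, 2 and 3 and 466, 523 and 461 FPKM in PEM-Control 1, 2 and 3. Every knockout library was above every control, and the lowest of them, PEM-CKO 1, was still well above the highest control. The log2 fold change was 1.40 (SE 0.18, 95% interval 0.98 to 1.82, adjusted p = 0.0113 by limma), or 2.64-fold. It was larger than the log2 fold change of 99.3% of the genes tested. In PEM-CKO 2, where Lyz2 was far above its level in the other knockout libraries, Ctsl lay between the other knockout libraries. This is 1 library, and a relation of Ctsl to Lyz2 was not tested. The call was lost without PEM-CKO 2 (adjusted p = 0.054) and without PEM-Control 2 (adjusted p = 0.081), with log2 fold changes of 1.34 and 1.46.

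Lgmn encodes legumain, the asparaginyl endopeptidase. It was at 750.0, 769 and 730 FPKM in the PEM-CKO libraries in order of number, and at 322, 313 and 472 FPKM in the PEM-Control libraries. The knockout libraries were close together (749.5 ± 19.7, n = 3) and the spread of the controls (369 ± 89.0, n = 3) came mostly from PEM-Control 3, the highest of them. The log2 fold change was 1.05 (SE 0.18, 95% interval 0.63 to 1.47, adjusted p = 0.0212 by limma), or 2.06-fold. The adjusted p of Lgmn was 0.0995 without PEM-CKO 1, 0.105 without PEM-CKO 2 and 0.101 without PEM-Control 2, while without PEM-Control 3 it fell to 0.00193 and the log2 fold change was 1.24.

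Ctss encodes cathepsin S, which remains active at neutral pH and makes the last cuts of the invariant chain in antigen-presenting cells. It was at 3611, 3531 and 3285 FPKM in PEM-CKO and at 2334, 2370 and 2268 FPKM in PEM-Control, in order of number. Replicates of Ctss lay within narrow ranges in both groups and the ranges were far apart (3476 ± 170 against 2324 ± 51.8, n = 3 each). The log2 fold change was 0.58 (SE 0.12, 95% interval 0.31 to 0.85, adjusted p = 0.0325 by limma), or 1.49-fold. With the replicate block the adjusted p of Ctss was 0.051. When any library but PEM-Control 3 was left out it was between 0.052 (without PEM-Control 1) and 0.152 (without PEM-CKO 2), with 0.148 without PEM-CKO 1, 0.0545 without PEM-CKO 3 and 0.103 without PEM-Control 2.

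Ctsb encodes cathepsin B, which acts both as an endopeptidase and as a carboxydipeptidase and is also known for a role in inflammasome activation after lysosomal damage. Its level was 2538, 2837 and 2286 FPKM in PEM-CKO 1, 2 and 3 and 1755, 1621 and 1692 FPKM in PEM-Control 1, 2 and 3. No control reached the lowest knockout library, and the knockout libraries were the more spread out (SD 276 against 67.1). The log2 fold change was 0.59 (SE 0.13, 95% interval 0.28 to 0.90, adjusted p = 0.0423 by limma), or 1.51-fold. With the replicate block the adjusted p of Ctsb was 0.061 and with voom it was 0.053. Without PEM-CKO 1, 2 or 3 it was 0.161, 0.189 and 0.0519, and without PEM-Control 1 or 2 it was 0.0566 and 0.140.

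**Figure D3:**
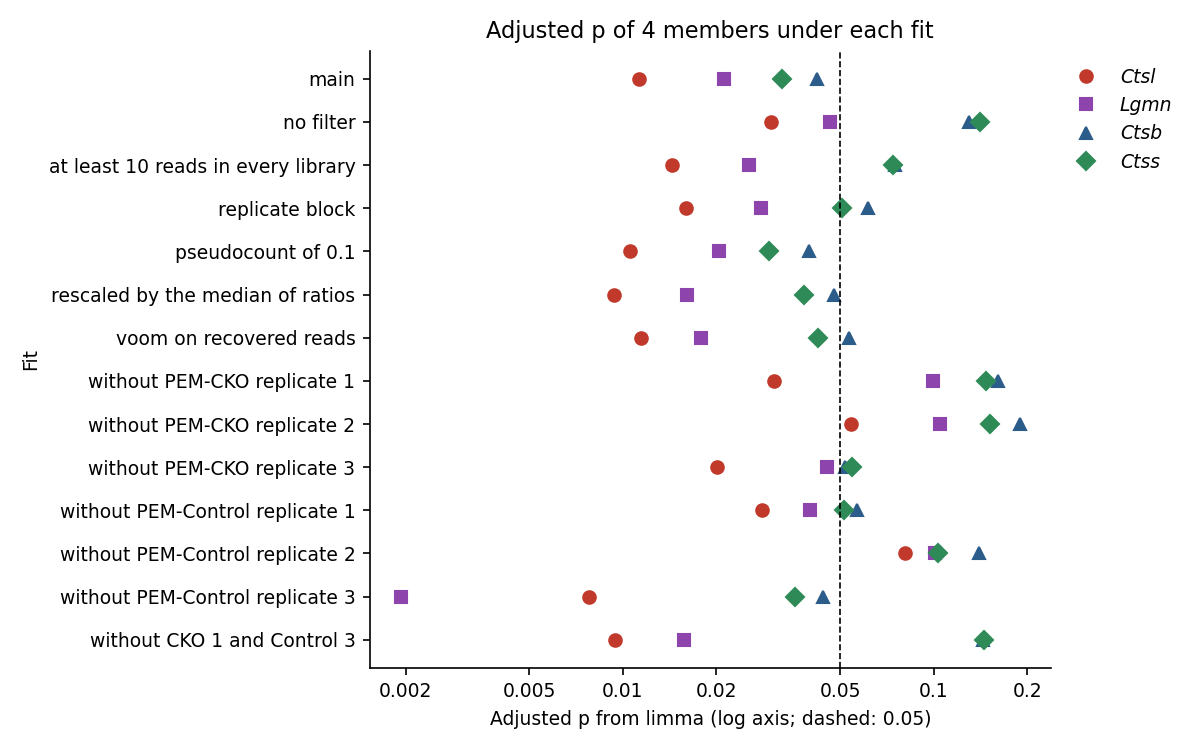
Adjusted p of Ctsl, Lgmn, Ctsb and Ctss (log axis) under the main fit and each of 13 alternative fits, with a dashed line at 0.05. Ctsl was below 0.05 in 11 of the 13 alternatives and Lgmn in 10, while Ctss was below it in 4 and Ctsb in 3.

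Of the members that did not pass, Ctsa and Ctsh had no overlap between the groups. Ctsa encodes cathepsin A (protective protein), which also stabilises beta-galactosidase and neuraminidase in the lysosome. It was at 348, 376 and 328 FPKM in PEM-CKO and 292, 226 and 268 FPKM in PEM-Control, with a log2 fold change of 0.42 (SE 0.14, 95% interval 0.09 to 0.76, adjusted p = 0.111 by limma). Ctsh, a cathepsin that acts mainly as an aminopeptidase, was at 145, 138 and 155 FPKM in PEM-CKO and 127, 103 and 104 FPKM in PEM-Control. Its log2 fold change was 0.39 (SE 0.14, 95% interval 0.07 to 0.71, adjusted p = 0.119). The lowest knockout library of each of these genes was above the highest control by less than the range within the control group.

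Ctsd and Ctsz were abundant and their groups overlapped. Ctsd, the main aspartic protease of lysosomes, was at 5212, 6018 and 5712 FPKM in PEM-CKO and at 5435, 3999 and 3519 FPKM in PEM-Control. PEM-Control 1 lay within the range of the knockout libraries and the other controls lay below it, so that the log2 fold change of 0.41 (SE 0.18, 95% interval -0.02 to 0.84, adjusted p = 0.199) had an interval that reached from no difference to 1.79-fold. Ctsz, cathepsin Z (also called X), is a carboxypeptidase. It was at 1462, 1295 and 1445 FPKM in PEM-CKO and at 1375, 1113 and 1298 FPKM in PEM-Control. Its log2 fold change was 0.15 (SE 0.14, 95% interval -0.16 to 0.47, adjusted p = 0.490).

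Ctsc and Ctse were the least abundant. Ctsc encodes cathepsin C (dipeptidyl peptidase I), which activates the granule proteases of mast cells, neutrophils and cytotoxic lymphocytes. It was at 24.4, 28.2 and 27.7 FPKM in PEM-CKO and at 34.5, 29.7 and 12.5 FPKM in PEM-Control. The controls lay on both sides of the knockout libraries, and the log2 fold change of 0.18 (SE 0.34, 95% interval -0.63 to 0.98, adjusted p = 0.766) turned to -0.25 without PEM-Control 3. The length behind the FPKM of Ctsc was 11155 bases, against 1440 to 4743 for the other members, and a long length lowers the FPKM for a given number of reads. Ctse encodes cathepsin E, an aspartic protease of endosomes. It was at 1.01, 1.06 and 0.657 FPKM in PEM-CKO and 1.60, 1.30 and 1.02 FPKM in PEM-Control. These values rest on 57 to 134 reads, and the log2 fold change was -0.27 (SE 0.15, 95% interval -0.63 to 0.09, adjusted p = 0.288), the only one below 0 among the members.

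Some members share exon bases with another gene in the GENCODE annotation of GRCm38, and the sources used here do not say whether strand was used in counting, so reads of such a pair may not be separable. Ctsa overlaps Pltp on the opposite strand over 495 bases, and Pltp was at 67.8, 98.3 and 81.9 FPKM in PEM-CKO and 136, 87.1 and 23.2 FPKM in PEM-Control. Ctsb overlaps Fdft1 over 774 bases, and Fdft1 was between 3.24 and 5.60 FPKM in all libraries, far below Ctsb. Ctsl overlaps Gm47123 on the opposite strand over 1742 bases and Gm49230 on the same strand over 395 bases, and Ctsd overlaps Gm49369 on the same strand over 808 bases, none of which was listed. Ctsa also overlaps Neurl2 on the opposite strand over 324 bases (below 1 FPKM in every library), and Ctsz overlaps Nelfcd over 10 bases.

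The members were also summed within each library. Their summed level was 15085, 16373 and 15478 FPKM in PEM-CKO 1, 2 and 3 and 12143, 10299 and 10096 FPKM in PEM-Control 1, 2 and 3. The groups did not overlap, and the means were 15645 ± 660 and 10846 ± 1128 FPKM (n = 3 each), a ratio of 1.44, or 1.59 after rescaling by the median of ratios. Members took 3.8 ± 0.216% of all recovered reads in PEM-CKO and 2.54 ± 0.236% in PEM-Control. No test was made on these sums.

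The make-up of that sum, which does not depend on the scaling between libraries, differed in the share of Ctsl. Ctsl made up 8.25 ± 1.59% of the members' summed FPKM in PEM-CKO and 4.49 ± 0.62% in PEM-Control, and the groups did not overlap. The share of Lgmn was 4.79 ± 0.154% against 3.46 ± 1.07%, again without overlap. The share of Ctsz was lower in PEM-CKO, 8.98 ± 0.943% against 11.7 ± 1.07%, and that of Ctse was lower as well, while the shares of Ctsa, Ctsb, Ctsc, Ctsd, Ctsh and Ctss overlapped between the groups. The ratio of Ctsl to Ctsd was 0.191, 0.229 and 0.264 in the PEM-CKO libraries and 0.0857, 0.131 and 0.131 in the controls. The ratio of Ctsl to Ctsz was 0.929 ± 0.216 against 0.388 ± 0.0717, and that of Ctsl to Ctss was 0.375 ± 0.0929 against 0.208 ± 0.0113, both without overlap. By contrast, the ratios of Ctss, Ctsb and Lgmn to Ctsd overlapped between the groups.

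For Ctsl, Lgmn and Ctsb, the members with the largest log2 fold changes, the most similar profiles over the 6 libraries were looked for among 5770 genes with a mean of at least 5 FPKM in one group, by the root mean square difference of centred log2 values. The nearest genes to Ctsl were Selenop, a secreted selenium carrier, with a difference of 0.15, and Hhex, a homeobox factor, with 0.168. Selenop was at 145, 165 and 184 FPKM in PEM-CKO and at 50.8, 76.1 and 56.0 FPKM in PEM-Control. The nearest genes to Lgmn were Acp5, the tartrate-resistant acid phosphatase of osteoclasts and macrophages, with 0.0909, and Plcl2 with 0.0944. Acp5 was at 146, 140 and 156 FPKM in PEM-CKO and 63.0, 57.9 and 82.4 FPKM in PEM-Control, and like Lgmn it was highest among the controls in PEM-Control 3. For Ctsb they were Sertad1 with 0.0378 and Slc6a6, a taurine transporter, with 0.0660. Such likeness is a description of these libraries only.

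Of 14 other cathepsin genes listed, 11 were in the table and 3 were tested. Ctsk, cathepsin K, the collagen-degrading protease of osteoclasts, was at 170, 196 and 267 FPKM in PEM-CKO and at 77.4, 97.6 and 97.5 FPKM in PEM-Control. No library of one group reached the other, and the log2 fold change was 1.19 (SE 0.20, adjusted p = 0.0196 by limma), second in size to that of Ctsl among the cathepsins. The call of Ctsk was lost without PEM-CKO 1 (adjusted p = 0.0598), PEM-CKO 2 (0.0840) or PEM-Control 2 (0.0960). Its promoter window held no CACGTG. Ctso was between 5.8 and 11 FPKM with overlapping groups (log2 fold change 0.07, adjusted p = 0.880). Ctsf, Ctsg and Ctsw, the last typical of cytotoxic lymphocytes, were below 1 FPKM in every library. Summed levels of 6 mesothelial and fibroblast markers, cells that also make Ctsk and Ctsl, were 11.2 to 29.3 FPKM in PEM-CKO and 2.06 to 11.8 FPKM in PEM-Control. Within same-numbered libraries the sum was higher in PEM-CKO each time (11.2 and 2.06, 29.3 and 5.72, 13.3 and 11.8 FPKM). Of the 3 markers tested 0 passed in the main fit and 2 with the replicate block (855 of the 9030 genes tested did). The part of these cells in the differences was not tested.

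The remaining listed cathepsins belong to a rodent cluster that is known from the placenta. Ctsj had 174 reads in PEM-CKO 1 and 179 in PEM-Control 3, and 0 in each of the other libraries. The same held for Ctsq with 94 and 53 reads, Cts3 with 66 and 14, Cts6 with 39 and 13, Ctsm with 17 and 6, and Ctsr with 13 and 11. In all there were 403 reads in PEM-CKO 1 and 276 in PEM-Control 3, against 149426 and 59584 reads of Ctsl in these libraries. When both libraries were left out, an alternative chosen after these reads were seen, Ctsl and Lgmn were still higher in PEM-CKO with log2 fold changes of 1.54 and 1.23 (adjusted p = 0.00947 and 0.0157 by limma), while Ctsb and Ctss did not pass (log2 fold changes 0.59 and 0.53, adjusted p = 0.144 and 0.146). In that fit 2.57% of all genes were called higher.

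**Figure D4:**
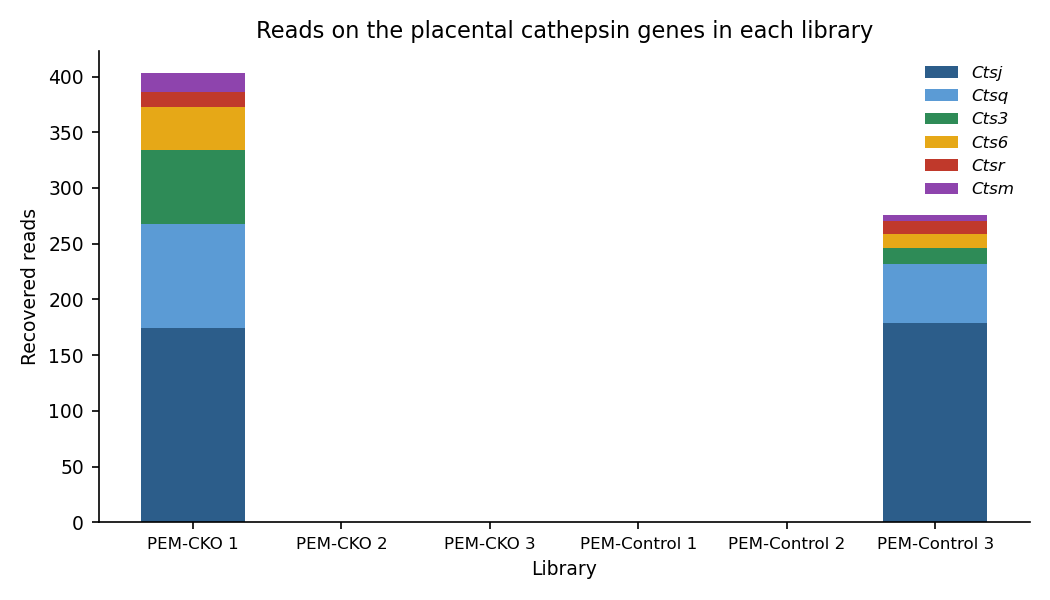
Recovered reads of the placental cathepsins Ctsj, Ctsq, Cts3, Cts6, Ctsr and Ctsm in each of the 6 libraries, stacked by gene from 0. Only PEM-CKO 1 (403 reads) and PEM-Control 3 (276 reads) have any.

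Of 11 tested genes in a list of protease inhibitors (cystatins, stefins, Ctla2 genes and serpins), none was higher in PEM-CKO and 4 were lower (4.74% of all genes were lower), with a median log2 fold change of -1.01 against -0.11 over all genes. The 4 were of low level in PEM-CKO: Stfa3 and Csta2, of the stefin A group of cystatins, with log2 fold changes of -3.74 (adjusted p = 0.0153) and -1.84 (0.0388), Ctla2b, which resembles the propeptide of a cathepsin, with -2.52 (0.0159), and Serpinb1a, an inhibitor of neutrophil serine proteases, with -1.16 (0.0216). Stfa3 was at 0.520, 1.09 and 3.32 FPKM in PEM-CKO and 43.8, 50.5 and 13.1 FPKM in PEM-Control. With voom 1 inhibitor passed (Serpinb1a) and with the replicate block 6 did, beside 589 and 855 of the 9030 genes tested, and 660 without the block. Without a filter on low values Csta2 (adjusted p = 0.0748) and Serpinb1a (0.0511) did not pass, nor did Serpinb1a without the 2 libraries with placental reads (0.0705). None of the 4 passed without PEM-CKO 1 (adjusted p from 0.0728 for Stfa3 to 0.149 for Csta2) or without PEM-Control 2 (0.0960 to 0.120), and without PEM-CKO 2 they were between 0.0556 for Serpinb1a and 0.155 for Csta2. Without PEM-CKO 3 Csta2 (0.0601) and Serpinb1a (0.0509) did not pass, and without PEM-Control 1 Csta2 did not (0.0585). All 5 mast cell markers tested and 2 of 4 neutrophil markers tested were lower in PEM-CKO in the main fit, and 4 and 1 passed with the replicate block. The part of these cells in the inhibitor differences was not tested.

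The most abundant inhibitors did not pass the test. Cstb, stefin B of the cytosol, was at 1156, 1127 and 1162 FPKM in PEM-CKO and at 1169, 1353 and 1439 FPKM in PEM-Control (log2 fold change -0.20, adjusted p = 0.356). Cst3, the secreted cystatin C, was at 589, 638 and 670 FPKM in PEM-CKO and at 584, 449 and 455 FPKM in PEM-Control (log2 fold change 0.36, adjusted p = 0.171). Their sum was 1781 ± 46.1 against 1816 ± 72.0 FPKM, with overlap. The summed level of the 6 papain-family members was 5.0 ± 0.235 times that of Cst3 and Cstb in PEM-CKO and 3.25 ± 0.203 times in PEM-Control, without overlap.

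Among 10 genes that sort lysosomal enzymes, none passed after adjustment, and 5 passed at an unadjusted p under 0.05, beside 27.6% of all genes. Those 5 had log2 fold changes above 0 and no overlap between the groups: Lrp1 (0.82), Igf2r (0.66), the larger mannose 6-phosphate receptor, Gnptab (0.59), Gnptg (0.37) and Nagpa (0.35), with adjusted p-values between 0.0522 (Gnptab) and 0.16 (Nagpa). With voom 2 passed (589 of the 9030 genes tested did) and after rescaling 3 passed (669 did). M6pr, the smaller mannose 6-phosphate receptor and the most abundant of them, was at 183, 173 and 188 FPKM in PEM-CKO and 193, 194 and 196 FPKM in PEM-Control (log2 fold change -0.10, adjusted p = 0.590). Of 6 other lysosomal peptidases none passed after adjustment, 2 passed unadjusted, a share near that of all genes, and 1 passed with voom. The most abundant, Scpep1, a serine carboxypeptidase, was at 214, 218 and 221 FPKM in PEM-CKO and 161, 212 and 234 FPKM in PEM-Control (log2 fold change 0.12, adjusted p = 0.647).

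Of 13 other lysosomal hydrolases and their cofactors, 3 were higher in PEM-CKO (2.57% of all genes were) and none was lower (4.74% were), with a median log2 fold change of 0.39 against -0.11 over all genes. The log2 fold change was above 0 for 9 of them and below 0 for 4. Gaa was lower in every PEM-CKO library (37.5 to 39.8 against 50.6 to 64.7 FPKM) and did not pass (log2 fold change -0.53, adjusted p = 0.0578 by limma). Galns, which removes sulfate from keratan and chondroitin sulfate, was at 21.4, 26.2 and 22.2 FPKM in PEM-CKO and 9.55, 9.56 and 11.7 FPKM in PEM-Control (log2 fold change 1.11, adjusted p = 0.0113). Gusb, beta-glucuronidase, was at 39.4, 52.6 and 41.9 FPKM in PEM-CKO and between 24.7 and 25.2 FPKM in PEM-Control (log2 fold change 0.80, adjusted p = 0.0230). Psap, the precursor of the saposins, which help to degrade sphingolipids and whose protein binds Ctsd, was at 5981, 6415 and 5988 FPKM in PEM-CKO and 4109, 3574 and 4444 FPKM in PEM-Control (log2 fold change 0.61, adjusted p = 0.0407). Psap did not pass without a filter on low values (adjusted p = 0.203), with at least 10 reads in every library (0.0987), with the replicate block (0.0606) or without the 2 libraries with placental reads (0.0948). Without PEM-CKO 1, PEM-CKO 2 or PEM-Control 2 none of the 3 passed (adjusted p from 0.0569 for Galns to 0.18 for Psap), and Psap also did not pass without PEM-CKO 3 (0.0765) or PEM-Control 1 (0.0585).

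**Figure D5:**
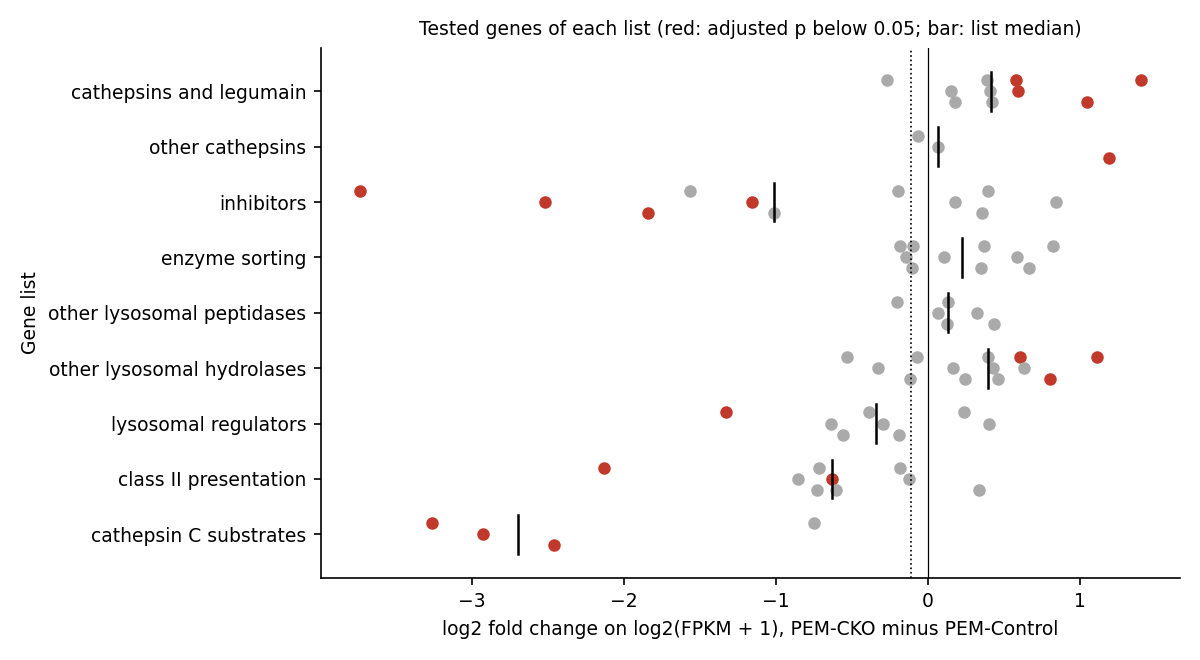
Log2 fold change on the log2(FPKM + 1) scale, PEM-CKO minus PEM-Control, of each tested gene of the members and of 8 related lists, in red where the adjusted p was below 0.05, with a bar at each list's median and a dotted line at the median of all genes. The members and the other lysosomal hydrolases have their called genes to the right of 0. The inhibitors, the lysosomal regulators, the class II genes and the granule proteases listed as cathepsin C substrates have theirs to the left.

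Of 8 transcription factors and sensors that control lysosomal genes, none was higher in PEM-CKO by the test and 1 was lower, beside 4.74% of all genes. Tfec, a macrophage factor of the TFEB family, was lower (13.5, 9.91 and 10.8 FPKM against 32.3, 31.1 and 26.7 FPKM, log2 fold change -1.33, adjusted p = 0.00963), and the other 7 did not pass. The log2 fold change was below 0 for 6 of the 8, with a median of -0.34 against -0.11 over all genes. Mitf (9.67 to 11.4 against 12.7 to 19.4 FPKM, log2 fold change -0.64, adjusted p = 0.0754 by limma) and Rraga (-0.29, 0.160) were also lower in every PEM-CKO library. The Tfec call was lost without PEM-Control 2 (adjusted p = 0.081). Tfeb itself was between 0.376 and 1.77 FPKM (log2 fold change -0.19, adjusted p = 0.639), and Rragc, the most abundant gene of the list and part of the amino acid sensor on lysosomes, was 0.40 higher on the log2 scale and did not pass (adjusted p = 0.143).

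Among 9 genes of MHC class II presentation, the process in which Ctss and Lgmn take part, none was higher in PEM-CKO and 2 were lower, beside 4.74% of all genes. For H2-DMb2, a chain of the peptide exchange factor, the log2 fold change was -2.13 (adjusted p = 0.0110), and for Ciita, the master regulator of class II genes, it was -0.63 (adjusted p = 0.0426). Ciita did not pass with the replicate block (adjusted p = 0.0557), without a filter on low values (0.0538) or without the 2 libraries with placental reads (0.0798). Without PEM-CKO 1, PEM-CKO 2 or PEM-Control 2 neither passed (adjusted p from 0.0521 for H2-DMb2 to 0.192 for Ciita), and Ciita also did not pass without PEM-CKO 3 (0.0878). Cd74, the invariant chain that Ctss cuts, was at 741, 278 and 496 FPKM in PEM-CKO and at 1417, 887 and 483 FPKM in PEM-Control. Its groups overlapped (log2 fold change -0.86, adjusted p = 0.273), with PEM-Control 3 below PEM-CKO 1 and 3. Ciita and H2-DMb2 are also expressed by B cells, and the part of these cells was not tested. Of 7 B cell markers, 6 were lower in PEM-CKO in the main fit, beside 4.74% of all genes, and Cd22 was not. With voom 2 of the 7 passed.

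Of 4 tested granule proteases, listed as possible substrates of cathepsin C, 3 were lower in PEM-CKO, beside 4.74% of all genes, and none was higher. Whether cathepsin C activates each of them was not examined. They were the mast cell proteases Cma1 (log2 fold change -2.93, adjusted p = 0.000665), Mcpt4 (-2.46, 0.000975) and Tpsb2 (-3.26, 0.000975), which also stood in the list of mast cell markers. Cma1 was at 0.437, 0.608 and 0.762 FPKM in PEM-CKO and at 10.3, 10.2 and 13.1 FPKM in PEM-Control, a separation that Ctsc, with its overlapping groups, did not share. The other, granzyme B (Gzmb), was between 0.0313 and 1.99 FPKM with overlap.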

How the data were processed

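RNA of PEMs was sequenced in 3 PEM-CKO and 3 PEM-Control libraries, grouped by title. The authors deposited 1 table with FPKM values per library. Its signal columns, also deposited, hold the mean of size-factor-scaled read counts over each group and over all libraries. Fold changes, p-values and q-values of the authors' own comparison are in the table and were not used. The labels name the build mm9. The aligner, the counting and the annotation are not given in the sources used here. From the FPKM and these means the whole reads behind each value were worked out (100% of values within 0.01 of a whole number), with 36170767 to 42217558 reads per library, and this depth limits mainly Ctse and the placental cathepsins. Intervals cover the spread between libraries.

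For the 9030 genes with a mean of at least 1 FPKM in one group, groups were compared on log2(FPKM + 1) by limma 3.58.1 in R 4.3.3, two-sided, using lmFit and then eBayes with a mean-variance trend. Benjamini-Hochberg adjustment was over all genes tested. This scale understates changes of low genes. All adjusted p-values in the text are from limma, and a two-sided exact permutation test of 3 libraries against 3 cannot give a p below 0.1. The fit was also run on simulated reads, drawn separately for each library with the same setting of spread for every gene. That simulation held no pairing and no mixture of cells, and its outcome is not used here as support for any call.

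The members, the related lists and the markers were chosen with earlier results of these data known. All members were named, with Timd4, Lyz2, the genes past the threshold (up to 6) and the most abundant gene of each related list, and the 2 genes nearest to each of the 3 members with the largest changes. Tfeb, Mitf, Rraga, Gaa, Gzmb, Cst3, Ctso, Ctsf, Ctsg and Ctsw were named outside this rule. So were the sorting genes other than M6pr, the placental cathepsins, the overlapping genes and the markers. The alternatives were other filters on low values, a pseudocount of 0.1, rescaling by the median of ratios, voom on the recovered reads, a replicate block and each library left out. Across genes, the deviation of a PEM-CKO library from its group mean correlated with that of its same-numbered PEM-Control library at 0.109, 0.109 and 0.304, all above the limit of 0.1 set for pairing, so the numbers were taken to pair the libraries. Pairs with different numbers correlated between -0.33 and 0.29. The highest of these, PEM-CKO 2 with PEM-Control 1, was also above the limit, so the check is weak ground for pairing. This pairing comes from the check alone, since no source used here says what the numbers share. Promoter windows came from RefSeq (GRCm38.p6), where 7 of the 10 members had one.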

Additional observations from a re-analysis of the deposited data

How the results depend on the processing

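The log2 fold change of each of the 10 members except Ctsc kept its sign in all 13 alternatives. That of Ctsc ranged from -0.25 (without PEM-Control 3) to 0.44 (without PEM-Control 1) when 1 library was left out and was -0.19 without the 2 libraries with placental reads, and Ctsc was called in none. Of the 10 members 4 passed, and 2 did when no filter on low values was set, with at least 10 reads in every library, with the replicate block and without the 2 libraries with placental reads (chosen after seeing the data). When each library was left out in turn, 0 to 4 members passed, 3 to 23 genes of the related lists (14 with all libraries) and 8 to 1333 of all genes (660 with all libraries). Fewer libraries entered these fits, and the cause of the differences between them was not tested. Among the members, the replicate block changed the calls of Ctsb and Ctss and no other. Across the fits, Ctsl had adjusted p-values between 0.00778 and 0.0807, Lgmn between 0.00193 and 0.105, Ctss between 0.0296 and 0.152 and Ctsb between 0.0397 and 0.189. The summed level of the members was 1.39 to 1.53 times higher in PEM-CKO when 1 library was left out. Depth limits Ctse most, with 57 to 134 reads in a library.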

Other observations

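The reads of placental cathepsins came with reads of other placental genes. In all, 44 genes had at least 5 reads in both PEM-CKO 1 and PEM-Control 3 and at most 1 read in each of the other libraries, while the other pairs of libraries had 0 to 18 such genes, the highest number being that of PEM-Control 1 with PEM-Control 2. Among the 44 were 10 genes of the prolactin family, with 888 reads in PEM-CKO 1 and 546 in PEM-Control 3, 9 pregnancy-specific glycoproteins with 721 and 252 reads, 5 genes of the Ceacam family with 451 and 189 reads, and the 6 cathepsins with 403 and 276 reads. Prl3b1, a placental lactogen, was highest in PEM-CKO 1 with 371 reads, and had 208 in PEM-Control 3. Together the 44 genes held 3036 reads in PEM-CKO 1 and 1670 in PEM-Control 3, which is 0.00722% and 0.00462% of the reads of these libraries. The genes were picked by this pattern and no test was made on them.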
